A study of Mus musculus with 13 samples.

Results

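The genes described here are 6 myeloid cell-surface receptors of the mouse Cd300 and Cd200 receptor families, Cd300a, Cd300lb, Cd300lf, Cd300c2, Cd200r1 and Cd200r4, out of 22598 features in the count matrix. They were taken by symbol. Cd300a and Cd200r4 were chosen by their own values, the opposite changes of the CPM of resident microglia at the peak of disease against controls. For that contrast the values of all 6 are therefore a description, with no test. So are the other comparisons of these 2 genes that use the peak resident libraries. Tests of Cd300a and Cd200r4 in chronic against control microglia share the control libraries with that contrast, so they are not independent of the choice. The counts are unique molecular identifiers (UMIs) from droplet single-cell RNA sequencing of cells sorted from the spinal cord. Cells of a library were summed by annotated cell type or microglial cluster and expressed as CPM, the count scaled to a common total of that sum.

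All 13 libraries came from mice with the Cx3cr1YFPCreERT2:R26tdTomato genotype, controls included. The line maps cell fate: Cre made from the Cx3cr1 locus acts once tamoxifen is given and turns on tdTomato, a mark that persists in long-lived resident cells and is lost from the circulating monocyte pool as it is renewed. Resident cells were collected from healthy controls (n = 3 libraries), at the peak of EAE, experimental autoimmune encephalomyelitis, in which the immune system attacks myelin (n = 2), and in its chronic phase (n = 3). Infiltrating cells were collected at the peak (n = 2) and in the chronic phase (n = 3), with none from controls. The condition labels give control libraries a and b as peak controls and control library c as a chronic control. The same control group of all 3 was used for both disease stages, and a difference between the control labels was not tested. The mark reports past Cx3cr1 activity and not cell identity. Chronic infiltrating library b held 1915 annotated microglia among 2359 cells, and the cause was not tested. The sources used here do not give mouse age or the number of mice per library. The labels call the samples biological replicates without saying how they were separated, so p-values measure the spread between these libraries.

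Receptors of both families sit on myeloid cells in pairs that inhibit or activate. Inhibitory members such as Cd300a and Cd300lf carry tyrosine motifs (ITIMs) in their tails that recruit phosphatases, while Cd200r1 inhibits through docking proteins after binding Cd200, a ligand found on neurons and other cells. Activating members such as Cd300lb, Cd300c2 and Cd200r4 have short tails and signal through partner chains with an activation motif (ITAM), of which Tyrobp (DAP12) is the best known. Several Cd300 receptors bind phosphatidylserine and related lipids that dying cells expose.

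In the GENCODE M21 annotation of GRCm38, Cd300a lies at chr11:114890041-114904654 on the plus strand. Cd300lb (chr11:114922781-114934386), Cd300c2 (chr11:114996721-115001880) and Cd300lf (chr11:115116214-115133992) lie on the minus strand of the same cluster of 11 genes. Cd200r1 (chr16:44765736-44794978) and Cd200r4 (chr16:44811733-44839150) lie on the plus strand in a cluster of 4 Cd200 receptor genes. Cd300lf overlaps Rab37, and Cd300lb overlaps the predicted gene Gm11699, each on the opposite strand; the sources used here do not say whether strand was used in counting. The last 500 bases of their transcripts, where 3′ reads fall, were compared in 90-base windows with other Cd300 and Cd200 genes only. Of the windows of Cd300lf, 2.95% were also found in Cd300ld, and 0 windows of the other members were found in another gene of these names. Reads from those windows cannot be assigned to Cd300lf or Cd300ld by sequence.

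The 250 bases before the RefSeq start (GRCm38.p6) are shown for 3 members, Cd300a, Cd300lf and Cd200r4, which had the largest changes at the peak against controls, 5′ to 3′ on the gene's strand. Capitals mark CTTCCTC, the reverse complement of GAGGAAG, an ETS-type box of the kind bound by the myeloid factor PU.1. Their positions are chr11:114889791-114890040 (plus strand), chr11:115133993-115134242 (minus strand) and chr16:44820478-44820727 (plus strand); the last window lies inside the longer GENCODE gene.
Cd300a: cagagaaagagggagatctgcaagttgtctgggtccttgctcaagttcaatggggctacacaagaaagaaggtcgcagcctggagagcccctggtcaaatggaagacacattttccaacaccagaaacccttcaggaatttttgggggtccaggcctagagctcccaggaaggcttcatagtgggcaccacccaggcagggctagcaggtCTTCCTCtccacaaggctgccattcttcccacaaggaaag
Cd300lf: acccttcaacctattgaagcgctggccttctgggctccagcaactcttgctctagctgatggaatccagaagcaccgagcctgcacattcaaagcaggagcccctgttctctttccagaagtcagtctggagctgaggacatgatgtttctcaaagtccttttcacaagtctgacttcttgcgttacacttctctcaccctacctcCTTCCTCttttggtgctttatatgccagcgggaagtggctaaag
Cd200r4: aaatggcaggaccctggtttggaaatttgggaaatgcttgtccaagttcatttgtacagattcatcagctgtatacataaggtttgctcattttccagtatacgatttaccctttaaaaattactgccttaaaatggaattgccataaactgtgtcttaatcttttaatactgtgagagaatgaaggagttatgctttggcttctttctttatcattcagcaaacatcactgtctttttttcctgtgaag

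GAGGAAG, searched on both strands, was found 40 to 34 bases before the start of Cd300a and 44 to 38 bases before that of Cd300lf. It was present in 10.4% of 27025 RefSeq promoter windows of that length. Cd300lb, Cd300c2 and Cd200r4 did not hold these letters in the window. TTCNNNGAA, a STAT-type site, was present in 7.18% of windows and was found in none of the 5 members with a promoter entry. A match of letters in a window is a description and not a site shown to be used.

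Microglial sums held 5415670 to 10330145 UMIs per control library, 4196375 to 6332115 per peak library and 6488280 to 17965689 per chronic library. Median UMIs per microglial cell were 3017 to 4476, 8446.5 to 8521 and 2465.5 to 3544 in the same order. The SLX column of the cell table sorts the libraries into 4 sets, called pools here, and its header does not say what they are. Pool B held control c and chronic resident c, and pool C held control b and both peak resident libraries. No pool held both disease stages. Pool C held 2 batch dates and each other pool 1, so the libraries of pool C are not shown to share a batch. Across all cells, the members gave 77774 (Cd300c2), 15543 (Cd300lf), 15452 (Cd300a), 2937 (Cd200r1), 2285 (Cd200r4) and 905 (Cd300lb) UMIs, which sets how precisely each could be measured. Within the libraries 55 cell barcodes occurred in more than 1 library (110 cells). All 6 members passed the filter on low counts in each fit used below.

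At the peak, Cd300a was low and Cd300lf and Cd200r4 were high in resident microglia. Cd300a, the inhibitory phosphatidylserine receptor, stood at 155, 158 and 205 CPM in control libraries a, b and c and at 28.8 and 20.7 CPM in peak libraries a and b. The inhibitory receptor Cd300lf stood at 2.80, 11.1 and 2.61 CPM in the controls and at 405 and 241 CPM at the peak. Cd200r4, the activating Cd200-family receptor, stood at 0.883, 0.923 and 1.45 CPM in the controls and at 15.3 and 10.4 CPM at the peak. For these 3 genes the peak values lay outside the control range, as they did for 60.2% of all 11078 genes tested. For Cd300a and Cd200r4 that was fixed by their choice.

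The other members were all lower at the peak. Cd200r1, the inhibitory receptor for Cd200, was at 22.2, 24.4 and 22.3 CPM in controls and 10.2 and 6.00 CPM at the peak. The activating receptor Cd300c2 was at 726, 673 and 800 CPM in controls and 436 and 509 CPM at the peak. Cd300lb, an activating receptor that pairs with Tyrobp, was at 2.21, 2.03 and 2.81 CPM in controls and at 0.953 and 0 CPM at the peak, from 4 UMIs in the 2 peak libraries. On library size these values lay below the control range. On the TMM scale used for the fold changes, Cd300c2 in peak b (588 CPM) lay inside the control range of 524 to 701 CPM.

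Log2 fold changes of peak over control, from edgeR with TMM scaling, were -2.51 for Cd300a, 6.27 for Cd300lf, 3.76 for Cd200r4, -1.22 for Cd200r1, -0.30 for Cd300c2 and -2.26 for Cd300lb. By these values 5 of 6 members were past 2-fold, where 24.4% of 11078 genes were (13% higher and 11.4% lower). By the adjusted p, 30% of genes were called, 16% higher and 14.1% lower. The choice of members used this contrast, so nothing is read from these shares. On library size alone 29.1% of the called genes were higher, against 53.2% with TMM, and the median of all genes was -0.33 against -0.01. Within pool C, which held 2 batch dates, Cd300a stood at 158 CPM in control b against 28.8 and 20.7 CPM in the peak libraries. Cd200r4 stood there at 0.923 CPM against 15.3 and 10.4 CPM. Leaving out control b, the control with the highest Cd300lf, moved its change to 7.16. Leaving out peak a, which held all 4 UMIs of Cd300lb, left a peak group of 0 UMIs, with a fitted change of Cd300lb of -7.11 that depends on the prior count and is no bound.

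**Figure D1:**
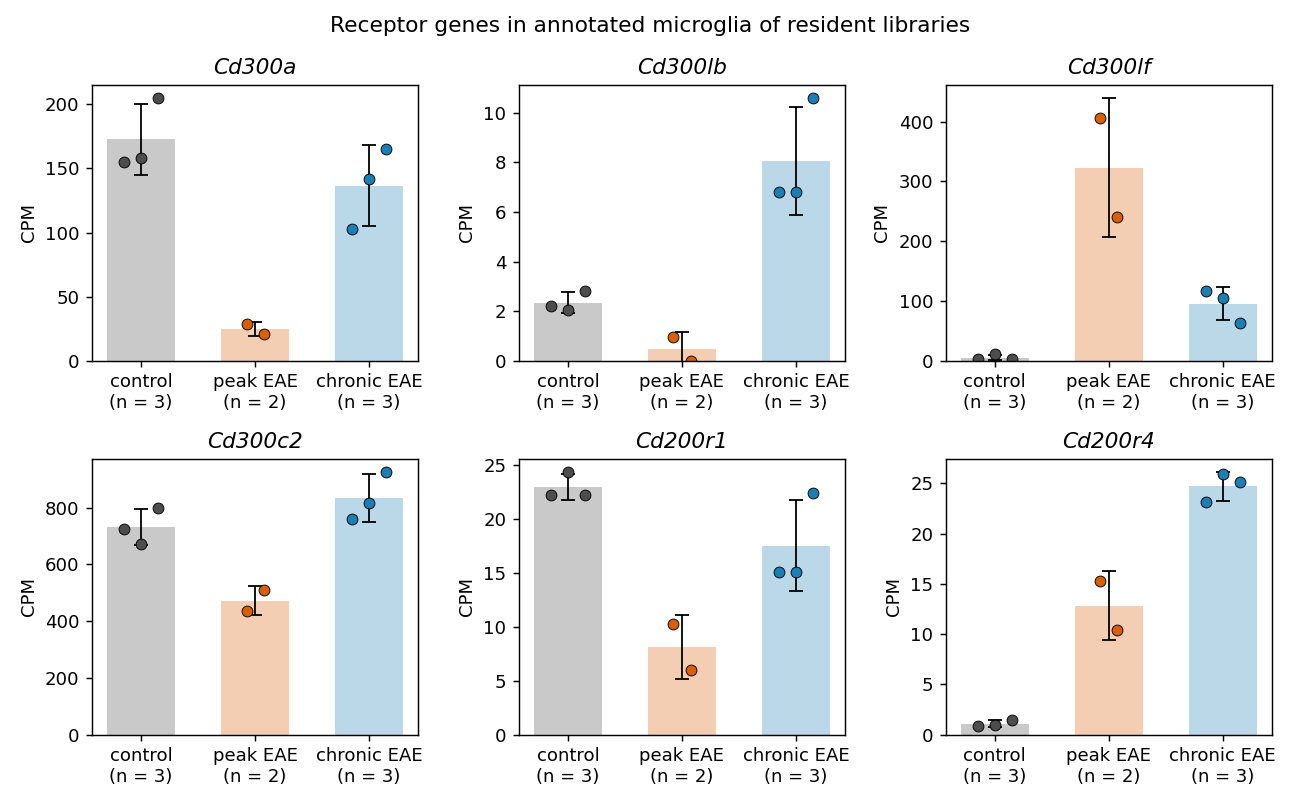
CPM of the 6 receptor genes in annotated microglia of resident libraries (bars are group means, error bars SD, points single libraries; each panel has its own CPM axis from 0). The peak libraries sit at 20.7 to 28.8 CPM for Cd300a, below all other libraries, and at 241 and 405 CPM for Cd300lf, above all others; Cd200r4 is highest in the chronic libraries, at 23.1 to 25.9 CPM.

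In the chronic phase, 3 of 6 members were higher in microglia than in controls, where 28.3% of 11078 genes were called in either direction, 15% higher and 13.4% lower. The 3 include Cd200r4, which was chosen through the same controls, so nothing is read from that count beside these shares. Cd200r4, at 23.1, 25.9 and 25.1 CPM in chronic libraries a, b and c, had a mean of 24.7 CPM ± 1.44 (SD, n = 3) against 1.09 ± 0.318 in controls. Its log2 fold change was 4.87 ± 0.27 (SE, edgeR quasi-likelihood test, Benjamini-Hochberg adjusted p = 2.65e-07). The same controls were used to choose Cd200r4, so its p is not independent of that choice and is not read as support. With 26 UMIs in the controls, Cd200r4 passed the filter on low counts only through the disease libraries. Cd300lf stood at 116, 106 and 63.9 CPM in chronic libraries, all above the highest control value of 11.1 CPM. Its log2 fold change was 4.70 ± 0.47 (adjusted p = 1.84e-05). Cd300lb, at 6.81, 6.78 and 10.6 CPM in chronic libraries, rose by 2.19 ± 0.39 (adjusted p = 0.00136) from 55 UMIs in the controls to 280 in the chronic libraries. For the 3 genes the groups did not overlap, which was so for 62% of all genes (9.72% higher in every chronic library than in every control, 52.3% lower). Without control b the change of Cd300lf was 5.59 (adjusted p = 1.46e-05). The 3 genes were called in all 12 alternative analyses, among them pool as a term in the model. Control c and chronic resident c, in pool B, were the only control and chronic resident libraries to share a pool. With that term the change therefore rests on these libraries alone, with the spread taken from others, and is no separate support. Within pool B, chronic library c was above control c for the 3 genes, at 25.1 against 1.45 CPM for Cd200r4. Control c is the only control labelled chronic, and the fit with a pool term in effect compares chronic c with it alone.

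The other 3 members did not pass the test in the chronic phase. Cd300a was at 103, 142 and 165 CPM in chronic libraries, overlapping the control range of 155 to 205 CPM, and its log2 fold change was 0.10 ± 0.21 (adjusted p = 0.746). Cd200r1 was at 15.1, 15.1 and 22.4 CPM, overlapping the controls, with 0.07 ± 0.20 (adjusted p = 0.827). Cd300c2 was at 759, 815 and 927 CPM, also overlapping the controls on library size, with 0.63 ± 0.23 (adjusted p = 0.0522). On the TMM scale its chronic values, 917 to 989 CPM, lay above the controls at 524 to 701 CPM. With scaling to library size alone, Cd300a and Cd200r1 changed sign, to -0.34 and -0.38 (adjusted p = 0.215 and 0.216). The same scaling moved the median of all genes from -0.06 to -0.51. It also moved the share of called genes that were higher from 52.9% to 17.3%. Cd300c2 was called with DESeq2 (0.67, adjusted p = 0.00663), without chronic resident c (0.62, adjusted p = 0.0398) and with only the compared groups in the fit (0.68, adjusted p = 0.0279).

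Markers of other cells were present in the microglial sums at levels that differed between the stages. The 8 monocyte markers summed to 3.68 to 7.57 CPM in controls, 69.8 to 107 CPM at the peak and 85.6 to 278 CPM in the chronic phase, against 10839 CPM in annotated monocytes. In both disease stages most of that sum was 1 marker, Fn1, at 0.369 to 1.16 CPM in controls, 56.0 and 67.7 CPM at the peak and 83.3 to 273 CPM in the chronic phase. The other 7 monocyte markers summed to 2.52 to 7.20, 13.8 to 38.8 and 2.28 to 5.03 CPM in the same order, so in the chronic phase they overlapped the controls. The 9 microglial markers summed to 22272 to 29045, 7627 to 8783 and 12630 to 14319 CPM. The border-associated macrophage list summed to 3.14 to 4.36 CPM in controls, 0.715 to 1.11 CPM at the peak and 4.62 to 5.92 CPM in the chronic phase. Their part in the changes of Cd300lf, Cd200r4 and Cd300lb was not tested.

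Between the disease stages, 4 of the 4 members that could be tested differed in microglia, where 21.7% of 11078 genes were called, 9.78% higher and 11.9% lower. Cd300lb rose from the peak to the chronic phase by 4.45 ± 0.65 (adjusted p = 0.00114), from 4 to 280 UMIs. All 4 peak UMIs were in peak library a. The change was 3.34 (adjusted p = 0.0138) without peak b, while without peak a the peak group held 0 UMIs and the fitted 9.34 (adjusted p = 0.00410) is no bound. Cd200r1 rose by 1.28 ± 0.25 (adjusted p = 0.00566), from a mean of 8.12 CPM ± 3.00 (SD, n = 2) to 17.5 ± 4.20 (n = 3). Cd300c2 rose by 0.94 ± 0.26 (adjusted p = 0.0243), from 472 CPM ± 51.6 to 834 ± 85.2. Cd300lf fell by 1.58 ± 0.42 on the log2 scale (adjusted p = 0.0209), from 323 CPM ± 116 to 95.1 ± 27.5. No value overlapped between the 2 stages for these 4 genes, nor for 48.5% of all genes. Cd300a and Cd200r4, whose peak values were used to choose them, were 24.8 CPM ± 5.76 and 12.8 ± 3.41 at the peak and 137 ± 31.3 and 24.7 ± 1.44 in the chronic phase.

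The comparison of stages rested on libraries from separate pools. With the pool as a term, 0 of the 4 members and 70 of all genes were called, and the changes were 4.08 (Cd300lb, adjusted p = 0.145), 1.46 (Cd200r1, 0.178), 0.53 (Cd300c2, 0.874) and -0.40 (Cd300lf, 0.939). Peak and chronic libraries share no pool, so stage and pool cannot be told apart except through the controls. Without peak resident a, Cd300lf (-1.28, adjusted p = 0.178) and Cd300c2 (0.75, adjusted p = 0.170) were no longer called. Cd300c2 (0.91, adjusted p = 0.0720) was not called without chronic resident b, and Cd300lf (-1.54, adjusted p = 0.0811) was not called with DESeq2.

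**Figure D2:**
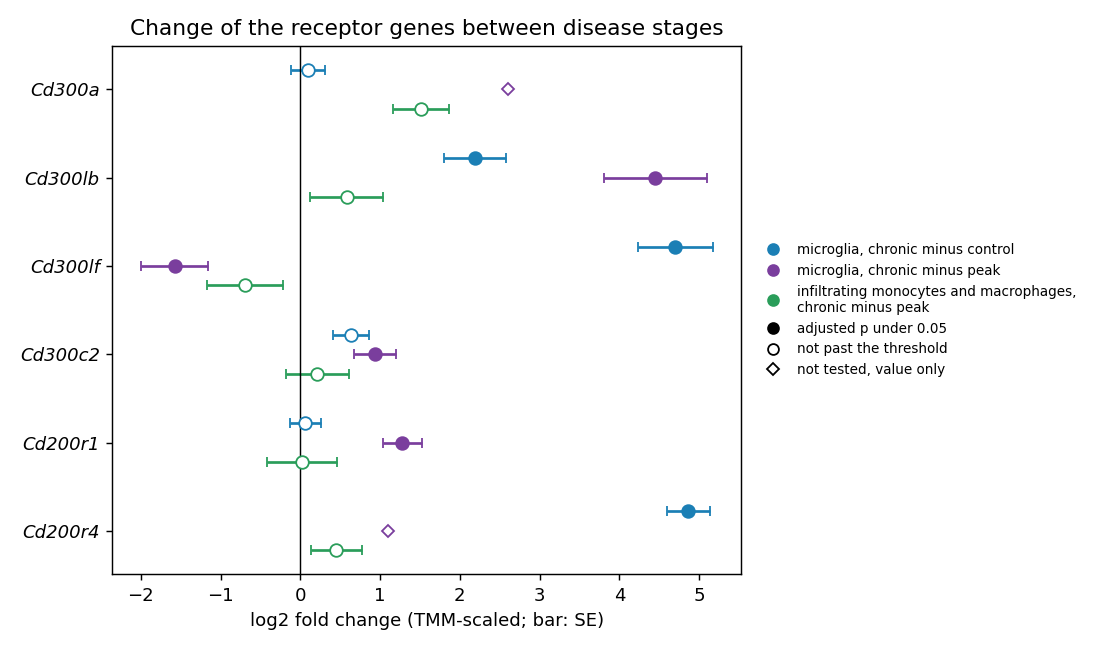
Log2 fold change (TMM-scaled, bar SE) of each receptor gene in microglia, chronic minus control (blue) and chronic minus peak (purple), and in infiltrating monocytes and macrophages, chronic minus peak (green). Filled circles passed an adjusted p of 0.05, open circles did not, and diamonds are values without a test; no green circle is filled.

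The share of microglia with at least 1 UMI of a gene was compared after thinning each cell to 2000 UMIs, since peak cells were deeper. Cd300a was found in 28.3% ± 3.60 (SD, n = 3) of control microglia, 5.08% ± 0.866 (n = 2) of peak microglia and 22.9% ± 4.61 (n = 3) of chronic microglia. Its share was 0.947% in annotated T cells. That class also held the listed natural killer cell markers, which summed to 3758 CPM, so it is not shown to lack the members. Cd300lf was found in 1.09% ± 0.819, 38.6% ± 9.88 and 16.4% ± 4.89 of microglia in the same order, against 2.65% of T cells. The control share of Cd300lf did not exceed that of T cells. Cd200r4 was found in 0.182% ± 0.0812, 3.26% ± 1.66 and 4.44% ± 0.586 of microglia, against 3.03% of T cells, with values of 3.78% to 4.90% in the chronic libraries. The T cell share rests on 528 cells pooled over libraries. Its 95% Wilson interval of 1.87% to 4.87% covers counting error only, and the mean shares of peak and chronic microglia lie inside it. T cells held 17.5 and 38.9 CPM of Cd200r4 in the 2 peak infiltrating libraries, so their share is not shown to be a background. Neither microglial share is read as a share of expressing cells.

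The other members were found in very different shares of cells. Cd300c2 was found in 75.0%, 62.0% and 78.6% of microglia at the 3 stages, against 5.30% of T cells. Cd200r1 was found in 4.53%, 1.98% and 3.17%, against 11.2% of T cells, where this receptor was also measured at its highest CPM. Cd300lb was found in 0.345% of control and 1.52% of chronic microglia, and in 0 of 1145 thinned peak cells, which allows a share of up to 0.262% over both libraries. That limit is for cells with a UMI at 2000 UMIs per cell and covers counting error only. Unthinned, 3 of 486 cells of peak a and 0 of 704 of peak b had a Cd300lb UMI. Thinning left out 208 control, 45 peak and 1159 chronic microglia and 46 T cells below 2000 UMIs, and the median depth before thinning of the T cells kept was 4394.5 UMIs. Unthinned, Cd300a was found in 46.3%, 15.7% and 33.6% of microglia, Cd300lf in 2.05%, 72.4% and 23.5% and Cd200r4 in 0.402%, 9.25% and 7.72%. The unthinned T cell shares of Cd300a, Cd300lf and Cd200r4 were 1.57%, 5.40% and 6.97%.

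The authors' microglial clusters, made from the same cells and all genes, were used to describe where the differences lay, with no test. Most control microglia (5672 of 6155) were in cluster 9, where Cd300a stood at 157, 163 and 206 CPM and Cd200r4 at 0.495, 0.858 and 1.36 CPM. In cluster 3, which held cells of all 3 conditions, Cd300a was 25.7 and 19.2 CPM in peak libraries and 82.0, 150 and 159 CPM in chronic libraries. In cluster 4 it was 48.5 and 31.2 CPM against 103, 129 and 143 CPM. The low peak values of Cd300a, which were used to choose it, were thus present in both clusters.

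Cd300lf in cluster 3 was 447 and 293 CPM at the peak and 146, 133 and 64.3 CPM in the chronic phase. In cluster 4 its peak values were 259 and 106 CPM and its chronic values 106, 90.9 and 72.7 CPM, which met at about the same level. Cd200r4 in cluster 4 was 28.5, 32.9 and 42.4 CPM in chronic libraries, above chronic cluster 1 (17.4, 16.2 and 13.3 CPM) and cluster 3 (14.4, 15.9 and 20.1 CPM). In the small chronic cluster 2 it was 16.5 CPM in library a, from 5 UMIs, and 39.0 CPM in library b, from 8 UMIs in 41 cells, which is above cluster 4 of that library. Chronic cluster 4 also held the highest chronic Cd300lb, at 9.0, 10.5 and 21.8 CPM against 1.08 to 2.90 CPM in cluster 1. Small control sums were as high, at 5.19 to 31.5 CPM in cluster 1 (11 UMIs) and 24.2 and 30.5 CPM in cluster 10 (10 UMIs). Control cluster 4 held 25.2 CPM (6 UMIs), while control cluster 9 held 0.643 to 1.49 CPM and control cluster 3 held 0 UMIs. In both peak libraries Cd200r4 was higher in cluster 4 (38.4 and 18.0 CPM) than in cluster 3 (11.6 and 8.42 CPM). Some cluster sums were small: the controls gave 0 Cd200r4 UMIs in 224 cells of cluster 1.

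**Figure D3:**
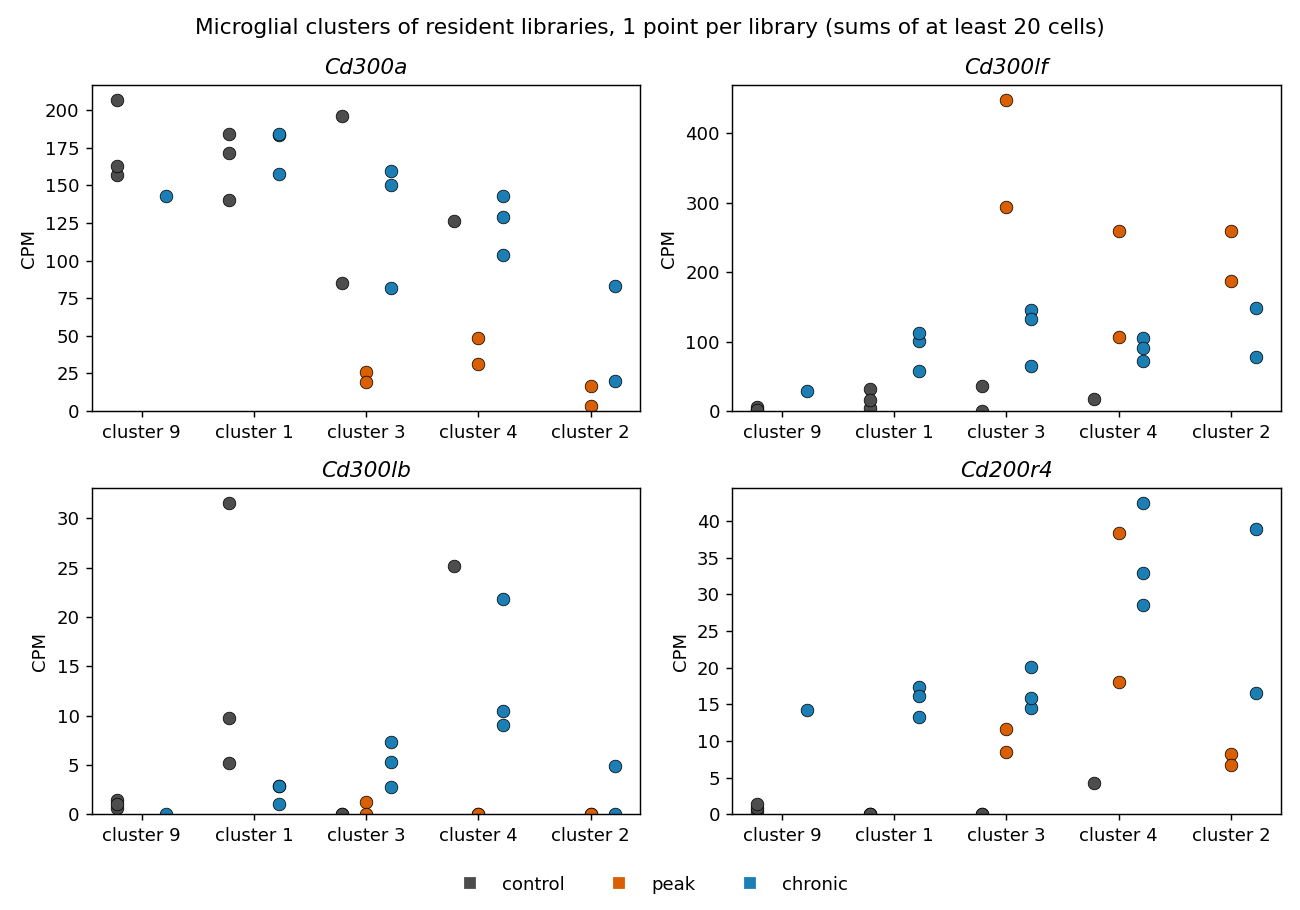
CPM of 4 receptor genes in microglial clusters 9, 1, 3, 4 and 2 of resident libraries, with 1 point per library and condition by colour (sums of at least 20 cells). Cd300a in peak libraries lay between 3.39 and 48.5 CPM in clusters 2, 3 and 4, the ones with enough peak cells, and Cd200r4 reached its highest value, 42.4 CPM, in cluster 4 of a chronic library.

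Among the other cell types, Cd300a was high in phagocytes and nearly absent from T cells. In infiltrating macrophages it was 92.7 and 111 CPM at the peak and 195, 234 and 215 CPM in the chronic phase. In infiltrating monocytes it was 74.8 and 75.8 CPM at the peak and 161, 286 and 357 CPM in the chronic phase. Dendritic cells held 176 to 196 CPM at the peak and 149 to 280 CPM in the chronic phase, and T cells 0 to 10.4 CPM. Resident-gate macrophages at the peak held 19.1 and 21.3 CPM, from 6 UMIs in each library, so their value is imprecise. In the chronic resident libraries macrophages held 161 to 209 CPM.

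Cd300lf was also found in infiltrating phagocytes at both stages. Infiltrating macrophages held 290 and 325 CPM at the peak and 271, 121 and 83.3 CPM in the chronic phase, and monocytes 200.1 and 279 CPM against 216, 112 and 57.4 CPM. Cd300c2 was 465 to 732 CPM in infiltrating macrophages and 407 to 654 CPM in infiltrating monocytes, 117 to 342 CPM in dendritic cells and 2.29 to 76.0 CPM in T cells. Cd300lb was 11.1 to 44.8 CPM in monocytes and gave no UMI in T cells. Pooled over libraries it was 16.3 CPM in monocytes, 23.4 CPM in cells annotated CAMs from 7 UMIs and 72.5 CPM in neutrophils from 11 UMIs, so its order between these types is imprecise.

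The Cd200-family receptors were distributed otherwise. Cd200r4 was 30.7 to 49.7 CPM in infiltrating macrophages and 16.6 to 29.6 CPM in infiltrating monocytes, but only 0 to 4.28 CPM in dendritic cells, from 4 UMIs in 335 dendritic cells. T cells held 0 to 38.9 CPM of Cd200r4. Cd200r1 reached its highest values in T cells, at 31.4 to 131 CPM. It was 11.2 to 44.5 CPM in infiltrating monocytes and macrophages and 30.0 to 53.5 CPM in dendritic cells, so the ranges overlapped. Macrophages exceeded T cells in chronic infiltrating a (44.5 against 41.7 CPM, the latter from 4 UMIs) and in chronic resident a (37.3 against 36.0 CPM). In the chronic resident libraries 4 members were higher in macrophages than in microglia in all 3 libraries, where 13% of 9760 genes were: Cd300a (1.14 to 1.80 times), Cd300lb (1.62 to 2.16 times, 9 macrophage UMIs in each library), Cd300lf (1.16 to 1.70 times) and Cd200r4 (1.59 to 2.01 times). Cd200r1 was at 2.47, 1.72 and 0.934 times its microglial level and Cd300c2 at 0.573 to 0.782 times. With TMM scaling Cd200r1 was also above its microglial level in all 3 libraries, which made 5 members, where 23.9% of genes were.

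**Figure D4:**
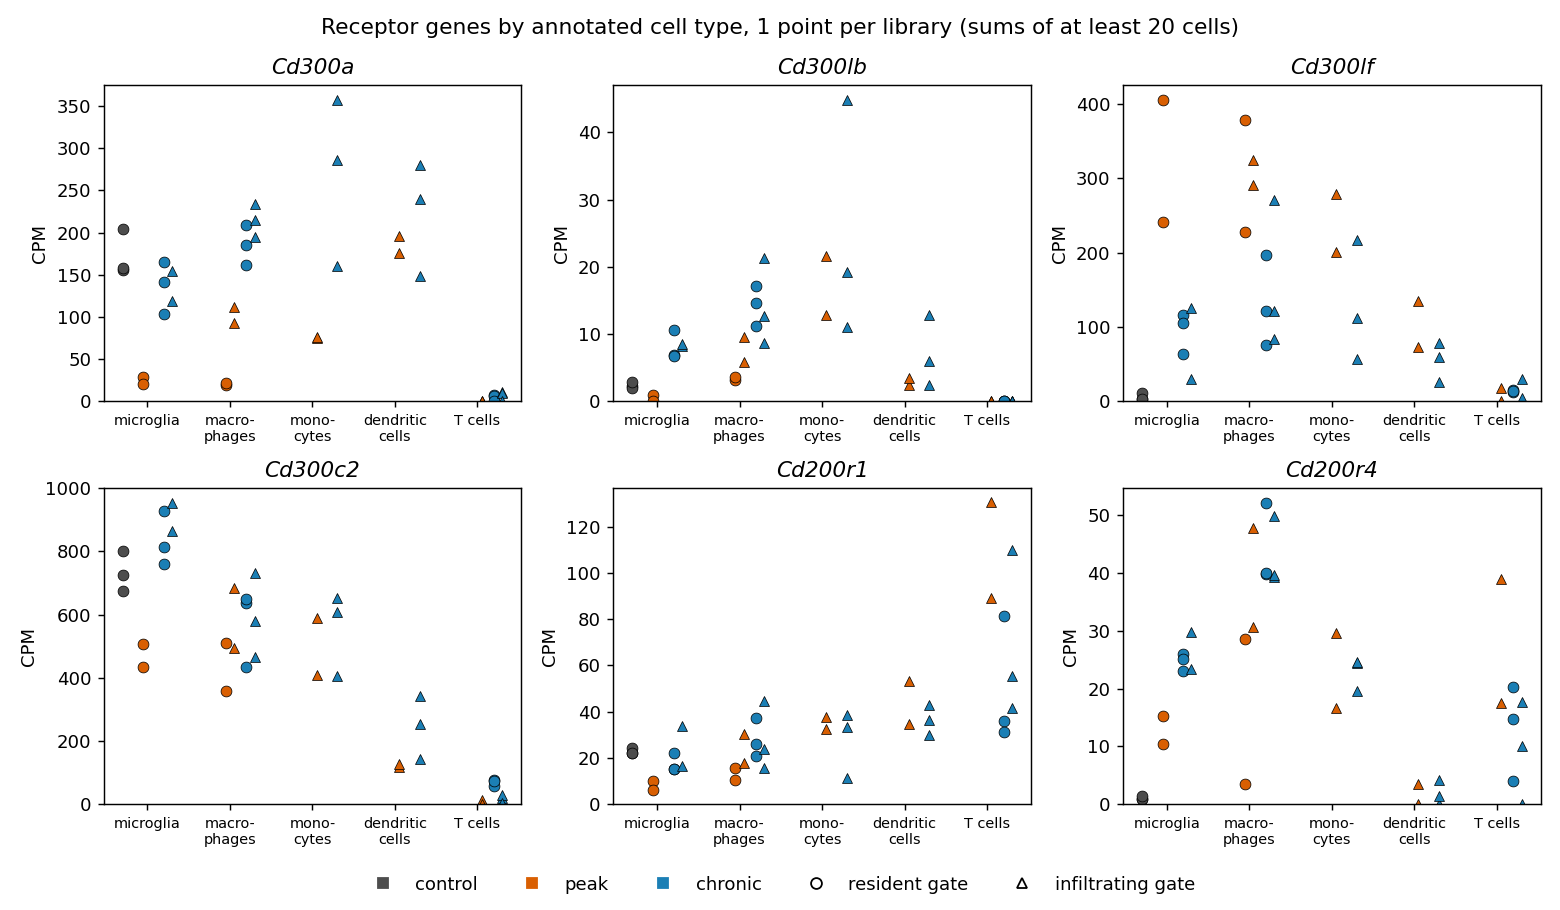
CPM of the 6 receptor genes by annotated cell type, with 1 point per library (sums of at least 20 cells), colour for disease stage and shape for sort gate. T cells lie at 0 to 10.4 CPM for Cd300a and at 31.4 to 131 CPM for Cd200r1, and dendritic cells lie at 0 to 4.28 CPM for Cd200r4.

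Between the stages, infiltrating monocytes and macrophages together gave no called change in any member, nor in any of 9705 genes (0% called). At an unadjusted p under 0.05, 922 genes and 1 member passed. That member was Cd300a, at 82.3 and 94.4 CPM in the peak libraries and 186, 243 and 260 CPM in the chronic libraries, which did not overlap, as was so for 25.5% of genes. Its log2 fold change was 1.52 ± 0.35 (unadjusted p = 0.00138, adjusted p = 0.243, edgeR quasi-likelihood test). DESeq2 called it (1.51, adjusted p = 0.00145) among 110 genes, as did the fit with no filter on low counts (1.47, adjusted p = 0.0408) and the fit without chronic infiltrating a (1.63, adjusted p = 0.0442). The pool is nested in the stage for these libraries, so no pool term could be fitted. In the same sums the 8 monocyte markers summed to 6175 and 10259 CPM at the peak and to between 985 and 4184 CPM in the chronic phase, and their part in the Cd300a value was not tested.

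The other members gave smaller differences in infiltrating cells, none called. Cd300lf changed by -0.70 (adjusted p = 0.654), Cd300lb by 0.58 (0.698), Cd200r4 by 0.45 (0.657), Cd300c2 by 0.21 (0.875) and Cd200r1 by 0.02 (0.989). Cd200r4 was 37.5 CPM ± 2.48 (SD, n = 3) in the chronic and 30.8 ± 11.7 (n = 2) in the peak libraries. In a fit of both cell populations, added after the data had been seen, the difference of the stage change between infiltrating cells and microglia was called in 5 of 11479 genes (0.0436%) and in none of the 4 members tested. The largest was -3.92 ± 0.89 for Cd300lb (adjusted p = 0.237).

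Next, all cells of the infiltrating gate were set against all cells of the resident gate. In such sums, fewer cells of a type and less RNA per cell cannot be told apart. At the peak, 2 of the 4 members that could be tested were higher in infiltrating cells, where 18.8% of 11787 genes were called, 9.36% higher and 9.48% lower. On library size alone 35.8% of the called genes were higher, against 49.7% with TMM. Cd300lb was 9.35 and 13.2 CPM in the infiltrating libraries against 1.72 and 0.149 CPM in the resident libraries, a difference of 4.00 ± 0.64 (adjusted p = 0.00398). The difference was 6.24 without peak resident a and 3.08 without peak resident b. The resident libraries held 9 Cd300lb UMIs together and peak resident b held 1, so the size of the difference is imprecise. Cd200r1 was 38.1 and 34.7 CPM against 11.4 and 7.28 CPM, a difference of 2.27 ± 0.35 (adjusted p = 0.00387). T cells made up 7.24% and 10.9% of cells in these infiltrating libraries, against 1.13% and 1.36% in the resident ones, and held the highest Cd200r1; their part in the result was not tested. Cd300lf (-0.11, adjusted p = 0.926) and Cd300c2 (0.34, adjusted p = 0.494) did not pass. Cd300a was 82.7 and 90.8 CPM in the infiltrating and 28.4 and 20.8 CPM in the resident libraries, and Cd200r4 was 21.3 and 37.0 CPM against 15.7 and 10.4 CPM.

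In the chronic phase, 0 of 6 members differed between the gates by the test, where 1.59% of 11787 genes were called and 0.00848% were called lower. At an unadjusted p under 0.05, 2 members and 2097 genes passed. Cd200r1 was 42.0, 20.7 and 30.2 CPM in infiltrating libraries a, b and c and 18.3, 17.1 and 23.0 CPM in resident libraries (0.84 ± 0.27, adjusted p = 0.159). Cd300a was 189, 183 and 202 CPM against 109, 135 and 165 CPM (0.65, adjusted p = 0.170), with no overlap, as for 22.9% of genes. Infiltrating library b, mostly annotated microglia, took part in this. Without it Cd200r1 was called (1.10, adjusted p = 0.00842), with 1859 genes called in all. With microglia removed from infiltrating libraries and kept alone in resident ones, Cd200r1 (1.14, adjusted p = 0.00236) and Cd300a (0.82, adjusted p = 0.0131) were called among 3278 genes. DESeq2 called Cd300a alone among the members (0.72, adjusted p = 0.0298).

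The partner genes of these receptors were described from lists of adaptors, phosphatases and related receptors. Their counts stand beside 15% of all genes called higher and 13.4% lower in chronic against control microglia, 9.78% and 11.9% in chronic against peak, and 16% and 14.1% at the peak against controls. Of the 10 ITAM adaptors and kinases, 4 rose and 2 fell in chronic microglia against controls, with a median log2 fold change of 0.34 beside -0.06 over all genes. Tyrobp, the adaptor that Cd300lb, Cd300c2 and Cd200r4 use, rose by 1.29 ± 0.27 (adjusted p = 0.00406), from 3338 to 5909 CPM. The Src-family kinase Fgr rose by 1.89 ± 0.24 (adjusted p = 1.30e-04) and Syk, the kinase that binds ITAMs, fell by 0.92 ± 0.21 (adjusted p = 0.00712). On library size alone 3 of these 10 genes were called higher and 5 lower, and Tyrobp was still 0.82 higher. From the peak to the chronic phase 4 of the 10 rose, among them Tyrobp (1.36, adjusted p = 0.0118), and 0 fell; on library size 3 were called higher and 1 lower. At the peak against controls 0 rose and 1 fell, Lyn (-0.83, adjusted p = 0.0494), a kinase that phosphorylates ITIMs.

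Of 9 phosphatases and docking proteins of inhibitory receptors, 1 rose and 3 fell in chronic microglia, with a median of -0.04. Inpp5d, the lipid phosphatase SHIP1, fell by 0.92 ± 0.22 (adjusted p = 0.00811) and Dok3 by 0.98 ± 0.23 (adjusted p = 0.00728). Dok2, a docking protein of Cd200r1, rose by 1.63 ± 0.49 (adjusted p = 0.0243), from 0.915 to 1.96 CPM. On library size alone 0 rose and 4 fell.

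Of 14 tested other inhibitory myeloid receptors, 7 rose and 5 fell in chronic microglia, with a median of 0.15. Cd22 rose by 3.35 ± 0.24 (adjusted p = 1.38e-06) and Cd72 by 3.36 ± 0.34 (adjusted p = 1.93e-05). Pecam1 fell by 3.19 ± 0.39 (adjusted p = 8.66e-05) and Siglece by 1.48 ± 0.25 (adjusted p = 0.000878). On library size alone 3 rose and 7 fell. At the peak 5 of the 14 rose and 4 fell, with Clec4a2 down by 3.17 ± 0.34 (adjusted p = 2.99e-05). On library size these counts were 4 and 6.

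Of 11 tested other activating receptors that use ITAM adaptors, out of 22 in the matrix, 4 rose and 1 fell in chronic microglia, and on library size 4 were called higher and 2 lower. Fcgr4, an activating antibody receptor, rose by 3.33 ± 0.36 (adjusted p = 3.07e-05) and Siglech fell by 2.23 ± 0.38 (adjusted p = 0.00106). From the peak to the chronic phase Fcgr4 fell by 1.36 ± 0.35 (adjusted p = 0.0189). Of 7 tested other receptors and bridges for phosphatidylserine, 2 rose and 4 fell, and on library size 1 was called higher and 5 lower. Axl rose by 2.57 ± 0.35 (adjusted p = 0.000224), while Stab1 fell by 0.94 ± 0.22 (adjusted p = 0.00682). In infiltrating cells between the stages 0 genes of any of the lists were called.

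Other genes of the 2 families were sparse. Cd300ld gave 709 UMIs over all cells, Cd300lg 193, Cd300ld3 118, Cd300e 91 and Cd300c 84, and Cd300ld4 and Cd300ld5 gave 0. Cd300ld rose in chronic microglia by 2.80 ± 0.62 (adjusted p = 0.00542), from 0.440 to 2.30 CPM, beside Cd300lf, with which it shares some sequence. Of the Cd200 ligand gene itself 349 UMIs were found, 172 of them in dendritic cells, 84 in T cells and 31 in microglia. Cd200r2 and Cd200r3 gave 9 and 17 UMIs, too few for any comparison.

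Over 31 sums of a library and cell type with at least 50 cells, from 13 libraries and 5 cell types, the genes closest to each member in Pearson correlation of log2(CPM + 1) were listed as a description; the sums share libraries and depth. For Cd300a these were Ptafr (r = 0.93), Rbpms (0.91), Rnf130 (0.91) and Spi1 (0.91). For Cd300lf they were C3 (0.91), Ifi211 (0.91), Il18bp (0.90) and Cxcl9 (0.90), and for Cd200r4 they were Fuom (0.87), Igf2r (0.87), Vat1 (0.83) and Trappc2l (0.81). For Cd300lb the closest genes were Mmp12, Lyz2, Myof and Cxcl14, for Cd300c2 Asah1, P2ry6, Rnf130 and Cd68, and for Cd200r1 Ubl7 (0.77), Syf2, S100a10 and Sumo2. Between members, r was 0.84 for Cd300a with Cd300c2, 0.78 for Cd300a with Cd300lb, 0.55 for Cd300lf with Cd200r4 and -0.01 for Cd300a with Cd200r4.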

How the data were processed

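Spinal cord tissue was homogenized mechanically, freed of myelin with Percoll and sorted for live cells, per the labels' protocols. The authors deposited raw UMI counts per gene and cell, with no normalization, and a cell table whose values include mitochondrial percent and the log10 of each cell's UMI count. Cell Ranger 3.1.0, R 4.1.3 and the build GRCm38 (mm10) are named in the submitters' processing notes, with no gene annotation. In the deposited table mitochondrial percent reached 5.00, and 0 cells were marked as doublets; no doublet caller was run here. Cell types, microglial clusters and the SLX codes are the authors', and those codes are called pools here. The table gives each library's group but not its replicate number, so libraries are called a, b and c, as names only.

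Counts were summed per library for annotated microglia, for infiltrating monocytes and macrophages, and for all cells. Each set was fitted over all genes with edgeR 4.0.16 in R 4.3.3 (filterByExpr, TMM scaling, two-sided quasi-likelihood F test), with Benjamini-Hochberg adjustment over all genes tested. A gene was called at an adjusted p below 0.05; the scripts were tested on simulated data. The microglial fit used 8 libraries with 5 residual degrees of freedom, the infiltrating fit 5 with 3, and the fit of all cells 13 with 8. CPM is on library size, while log2 fold changes are TMM-scaled, so their directions can differ. Groups were said not to overlap where every library of one lay outside the range of the other, and the share of all tested genes of which that held was computed. Alternatives were DESeq2 1.42.0, library-size scaling, no count filter, a pool term and leaving out libraries. The limit given for a count of 0 is 3 counts and covers counting error only. The members and lists were chosen with earlier results of these data known; from each list up to 4 genes with the smallest p per comparison could be named, and for each member the 4 genes with the highest correlation, with predicted genes, ribosomal protein genes, Xist and Y-linked genes left out of the latter.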

Additional observations from a re-analysis of the deposited data

How the results depend on the processing

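In chronic against control microglia, 3 to 4 members were called under every alternative, with or without each library. Cd200r4, chosen through the same controls, was among them, and the fit with a pool term rests on chronic resident c against control c. In chronic against peak microglia, the count of 4 called members fell to 0 with pool as a term. It also fell in some of the fits with a single library left out, and the cause was not tested. In infiltrating monocytes and macrophages the count of 0 became 1 with DESeq2 and 1 with no count filter, and ran from 0 to 1 with single libraries left out. For the gates in the chronic phase the count of 0 became 1 with DESeq2, 1 without the infiltrating library of mostly microglia and 2 with microglia removed from infiltrating libraries and kept alone in resident ones, and ran from 0 to 1 with single libraries left out. For the gates at the peak it stayed at 2. The members past 2-fold at the peak against control were 4 or 5. Direction did not reverse for any called member. The counts over all genes moved more: in chronic against control microglia 3140 genes were called, but 5295 on library size, 564 with pool as a term and 1721 to 4919 with single libraries left out. In the gates at the peak 2220 genes were called, and 345 to 2205 with single libraries left out. With 2 peak libraries, a lone peak library left after leaving out the other is assumed to vary like the other groups. No paired analysis was possible because the deposited cell table carries no replicate number. The depth limits Cd300lb, with 4 UMIs in peak microglia.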
